A study of Homo sapiens with 2 samples.

Results

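POU5F1, NANOG, LIN28A, LIN28B, TDGF1, DPPA4, L1TD1, DNMT3B and SALL4 are 9 genes of the embryonic stem cell state, followed here through enteric neural crest differentiation. They were taken by name, as genes known from the stem cells from which the cultures were made, with earlier results of these data known. All 9 were found among the 33694 gene names of both count matrices.

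The cultures were made from the human embryonic stem cell line H9, and the study sampled them at 2 stages on the way to enteric neurons. At day 10 the cells were an adherent monolayer on Geltrex, first fed BMP4, SB431542 and CHIR 99021, then SB431542 and CHIR 99021, and last the same pair with retinoic acid. SB431542 inhibits the type I receptors of TGF-β, Activin and Nodal, and CHIR 99021 activates WNT signalling by inhibiting GSK3. At day 15 the cells were free-floating enteric crestospheres, formed from the dissociated monolayer in suspension in a medium with FGF2 and CHIR 99021. Each stage is 1 library (n = 1), in which 2 biological repeats of 1 cell line were pooled. The repeats are not separated in the deposited metadata, and undifferentiated H9 cells are not among the samples analysed here. Stage, culture format, medium, depth and library cannot be told apart, no difference had a replicate check, and every interval below is a 95% interval that covers counting error only.

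Pluripotency rests on a small circuit of transcription factors, among them POU5F1 (OCT4), NANOG and SALL4, that is shut down as cells leave the stem cell state. TDGF1 (CRIPTO) is a cell surface co-receptor for Nodal, whose signal holds human stem cells in that state. LIN28A and LIN28B bind the precursors of the let-7 microRNAs and block their maturation. DNMT3B is a de novo DNA methyltransferase, DPPA4 a chromatin protein and L1TD1 an RNA-binding protein, all abundant in human embryonic stem cells. The LIN28 proteins and SALL4 are also known in early embryonic tissues beyond the stem cell stage.

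The let-7 family is the known target of LIN28A and LIN28B, and its sequences are shown because they join 3 of the 9 members. All 9 mature let-7 family sequences in RefSeq share bases 2 to 8, the seed, printed in capitals here for 2 of them.
hsa-let-7a-5p: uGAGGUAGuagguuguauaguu
hsa-miR-98-5p: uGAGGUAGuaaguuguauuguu
Of 12 let-7 hairpins in RefSeq (GRCh38.p14), 9 hold GGAG, the letters LIN28 is known to bind, past the arm of the mature sequence. A hairpin with the letters, in capitals (chr9:94175957-94176036, plus strand), and 1 without them (chr22:46112749-46112822, plus strand) follow, both of which give the same mature let-7a.
MIRLET7A1: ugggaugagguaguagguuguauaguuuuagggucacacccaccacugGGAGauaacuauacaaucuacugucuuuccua
MIRLET7A3: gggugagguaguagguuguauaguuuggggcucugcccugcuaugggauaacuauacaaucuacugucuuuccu
The letters that pair with the seed, CTACCTC, occurred in the 3′ UTR of LIN28A (1 match), LIN28B (4 matches) and SALL4 (1 match) (GENCODE 29, 1 coding transcript a gene), and in 0 of the other 6 members. Of 18938 coding genes with a 3′ UTR (median 872 bases), 8.60% held them. The 3′ UTRs of LIN28A, LIN28B and SALL4 are each longer than this median, and the part of length in their matches was not tested. The sites are printed with the match in capitals, in transcript order for LIN28B.
LIN28A site: gcacagcctattgaaCTACCTCat
LIN28B site 1: acccggttgcaaagtCTACCTCat
LIN28B site 2: tactgatgatagtaaCTACCTCtg
LIN28B site 3: gtttacagcaaaaggCTACCTCat
LIN28B site 4: aaatgatggtgttgaCTACCTCtt
SALL4 site: aaagctttaatttatCTACCTCat
The LIN28A match began at base 905 of a 3′ UTR of 3264 bases, those of LIN28B at bases 44, 2471, 2653 and 4092 of 4549, and that of SALL4 at base 1335 of 1934. A match of letters is a description and not a measured site, and mature microRNAs were not measured in these libraries.

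In the same annotation (GRCh38) POU5F1 lies at chr6:31164337-31180731 (minus strand), NANOG at chr12:7787794-7799141 (plus), TDGF1 at chr3:46574534-46582463 (plus) and DPPA4 at chr3:109326141-109337572 (minus). LIN28A lies at chr1:26410778-26429722 (plus), LIN28B at chr6:104936616-105083332 (plus), L1TD1 at chr1:62194831-62212328 (plus), DNMT3B at chr20:32762385-32809356 (plus) and SALL4 at chr20:51782331-51802520 (minus). All 9 are protein-coding genes, and their UMIs were counted from the 3′ end of transcripts, so levels are not compared between genes.

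The day 10 library held 9627 cells and 70488169 unique molecular identifiers (UMIs, counts of captured transcript molecules), and the day 15 library 6320 cells and 84976253 UMIs. Levels are given as CPM, the UMIs of a gene in all cells of a class, scaled to 1000000 UMIs of those cells. The median cell had 6713 UMIs at day 10 and 11770.5 at day 15. Barcodes were shared by 102 cells of each library, 1.06% of day 10 and 1.61% of day 15 cells. The deposited annotation named enteric neural crest cells (ENCCs, 4921 and 4934 cells), neuroepithelial progenitors (NEP, 1811 and 104), cranial placode cells (CP, 324 at day 10; CP1, 208, and CP2, 43, at day 15), non-neural ectoderm (NNE, 239, day 10) and mesenchymal cells (Mes, 47, day 15). The authors marked a further 2332 and 984 cells as low quality. Among the 10 leading genes of each class, ENCCs held SOX10 and ERBB3 at both stages, day 10 NEP held WNT2B and PAX6, CP and CP1 held NEUROD1, and Mes held TWIST1 and MSX1. NNE held 0 of its 4 markers there. Of the day 10 types, however, NNE had the highest level of all 4. EPCAM stood in it at 247.5 CPM, CDH1 at 94.2, KRT19 at 1225 and TFAP2A at 399.7. The day 15 NEP class held KRT19, an epithelial marker, and 0 of its own, and CP2 held PAX6 and 0 of its own, so of the annotated types only ENCCs were compared between the stages, and the order of levels over the types was taken within each stage.

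The members fell into 2 sets by the number of UMIs they gave per library. POU5F1, NANOG and TDGF1 gave 59 UMIs or fewer per library and stood at 2.17 CPM or less in every annotated type. LIN28A, LIN28B, DPPA4, L1TD1, DNMT3B and SALL4 were counted in every class of both stages, apart from L1TD1 in CP2. DNMT3B, with the fewest UMIs of these, gave 533 at day 10 and 496 at day 15. Within small classes the sets met, and in day 15 NEP POU5F1 and DNMT3B gave 2 UMIs each (1.74 CPM). POU5F1 gave 54 UMIs in 9627 cells at day 10 (0.766 CPM, 0.576 to 1.00) and 15 UMIs in 6320 cells at day 15 (0.177 CPM, 0.0988 to 0.291). NANOG gave 59 UMIs at day 10 (0.837 CPM, 0.637 to 1.08) and 24 at day 15 (0.282 CPM, 0.181 to 0.420). No cell of either library had more than 1 UMI of either gene, and 0 cells had a UMI of both, which allows up to 0.0312% of day 10 and 0.0475% of day 15 cells with a UMI of both at these depths, and sets no limit on cells that express them. TDGF1 gave 0 UMIs in both libraries, which allows up to 0.0426 CPM in the day 10 and 0.0353 CPM in the day 15 library.

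The few POU5F1 and NANOG counts were not confined to 1 class. POU5F1 stood at 0.595 CPM in day 10 ENCCs (22 UMIs), 1.28 in NEP (18 UMIs), 0.399 in CP (1 UMI) and 2.17 in NNE (4 UMIs). At day 15 it stood at 0.161 CPM in ENCCs (9 UMIs) and 1.74 CPM in NEP (2 UMIs), and gave 1 UMI in CP1, 1 in Mes and 0 in CP2. On these 2 UMIs the day 15 NEP level was 10.8 times the ENCC level (1.14 to 52.3). The intervals of the ratios of CP1, CP2 and Mes to ENCCs spanned 1. Thinned to 3000 UMIs per cell, 0.224% of day 10 ENCCs (0.112% to 0.400%), 0.334% of NEP cells (0.123% to 0.725%) and 0.0811% of day 15 ENCCs (0.0221% to 0.207%) had a POU5F1 UMI. No class here is known to lack these genes, so no background share could be set for them. For scale, WNT2B, a marker of the NEP class, was seen after the same thinning in 6.42% of day 10 ENCCs (median depth 7005 UMIs) and in 78.7% of NEP cells (median depth 7238.5 UMIs), and SOX10 in 30.7% of ENCCs and 2.84% of NEP cells. Before thinning, 1460 of the 1833 WNT2B UMIs of ENCCs lay in 256 ENCCs whose subtype is given as non-crest (649 CPM). In ENCC 1, the largest subcluster, WNT2B stood at 10.1 CPM, so the ENCC share of WNT2B was not read as background. Single UMIs of POU5F1 and NANOG were not read as expression in the cells that held them. POU5F1 also overlaps PSORS1C3 on the same strand of chromosome 6, and TCF19 on the other strand, where TCF19 gave 519 and 676 UMIs. POU5F1 has the near copy POU5F1B, which gave 32 and 7 UMIs. The NANOG near copy NANOGP8 gave 1 and 0 UMIs. Reads may be split between such pairs in counting, and TDGF1 overlaps another gene, AC104304.1, on the same strand of chromosome 3. Their part in the low counts was not tested.

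The cells with a POU5F1 or NANOG UMI, 113 at day 10 and 39 at day 15, were set beside the others. In them LIN28A stood at 228 CPM (199.9 to 259) at day 10, against 231 CPM (227 to 234) in the cells without. DPPA4 stood at 70.6 CPM (55.3 to 88.7) against 87.1 (84.9 to 89.3), SALL4 at 40.6 (29.3 to 54.9) against 34.8 (33.4 to 36.2), and the stem cell gene ZFP42 at 8.70 (3.98 to 16.5) against 7.79 (7.15 to 8.47). At day 15 LIN28A stood at 188 CPM (155 to 225) against 164 (162 to 167), and ZFP42 gave 0 UMIs in the 39 cells. The intervals of these genes overlapped between the cells with and without the rare UMIs. At day 10 DNMT3B gave 2 UMIs in the 113 cells, 1.93 CPM (0.234 to 6.98), against 7.64 (7.01 to 8.32) in the others. The 113 cells had more PAX6, 279 CPM against 205, and less SOX10, 49.3 against 78.3.

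**Figure D1:**
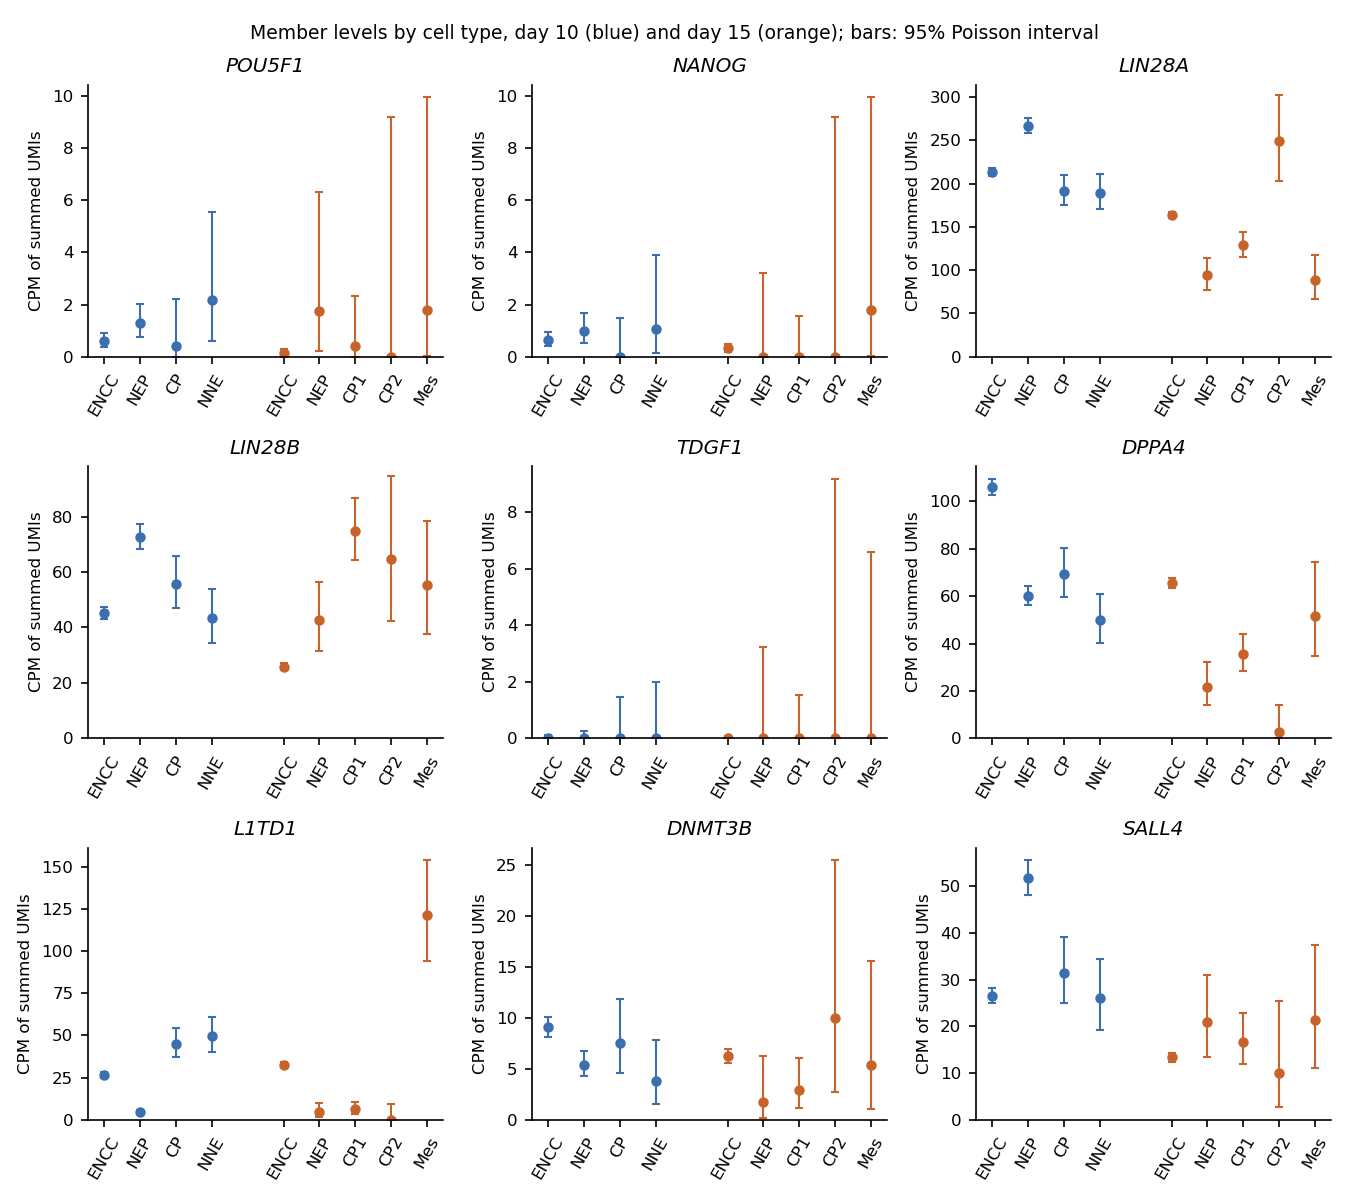
CPM of each member (vertical axis, linear from 0, scaled for each gene) in each annotated cell type at day 10 (blue) and day 15 (orange), with exact 95% Poisson intervals as bars. POU5F1, NANOG and TDGF1 lie at 2.17 CPM or less throughout, L1TD1 is highest at 121 CPM in the 47 Mes cells, and LIN28A is above 89 CPM in every type.

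LIN28A was counted in every type. It stood at 267 CPM in day 10 NEP (258 to 276), 214 in ENCCs (209 to 218), 191 in CP (175 to 209) and 189.6 in NNE (170.2 to 211). At day 15 it stood at 249 CPM in CP2 (202 to 303), 164 in ENCCs (161 to 167), 129 in CP1 (115 to 145), 94.1 in NEP (77.2 to 114) and 89.2 in Mes (66.2 to 118). In the day 10 order 2 of 3 neighbour pairs were apart by more than counting error, and CP and NNE were not (ratio 0.990, 0.860 to 1.14). In the day 15 order 3 of 4 were apart, and NEP and Mes were not (0.947, 0.663 to 1.34). In sums over all cells, to which the mix of types and the RNA of each cell both contribute and in which fewer cells and less RNA per cell cannot be told apart, LIN28A stood at 231 CPM at day 10 and 164 at day 15. The share of cells with a UMI went the other way at the deposited depth, 75.2% at day 10 and 81.1% at day 15, but after thinning to 3000 UMIs per cell it was 49.0% (48.0% to 50.04%) on day 10 and 37.6% (36.4% to 38.8%) on day 15, leaving out 586 shallower cells at day 10 and 0 at day 15. The thinned share and the CPM had the same order.

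LIN28B, the paralog of LIN28A, was ordered differently. At day 10 it stood at 72.7 CPM in NEP (68.3 to 77.3), 55.8 in CP (47.0 to 65.9), 45.3 in ENCCs (43.2 to 47.6) and 43.3 in NNE (34.4 to 53.9), with all neighbours apart but ENCCs and NNE. At day 15 it stood at 74.9 CPM in CP1 (64.4 to 86.8), 64.7 in CP2 (42.2 to 94.8), 55.3 in Mes (37.6 to 78.5), 42.7 in NEP (31.6 to 56.5) and 25.9 in ENCCs (24.5 to 27.2). Of these 4 neighbour pairs only NEP and ENCCs were apart. The number of LIN28A UMIs per LIN28B UMI, which is read here only for its shift between classes, was 4.71 in day 10 ENCCs (4.47 to 4.97), 6.34 in day 15 ENCCs (6.002 to 6.71), 3.67 in day 10 NEP (3.42 to 3.94) and 1.73 in CP1 (1.43 to 2.09). The paralogs therefore did not keep 1 ratio across the classes of a stage. Within ENCCs thinned to 3000 UMIs, a LIN28B UMI was seen in 13.3% of cells with a LIN28A UMI (11.9% to 14.7%) and in 13.0% of those without (11.7% to 14.4%) at day 10, and in 7.65% (6.48% to 8.95%) and 7.73% (6.81% to 8.74%) at day 15. Cells with 1 paralog were as likely, within these intervals, to show the other as cells without it.

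DPPA4 was highest in ENCCs at each stage. It stood at 106 CPM in day 10 ENCCs (103 to 109), 69.4 in CP (59.5 to 80.5), 60.05 in NEP (56.1 to 64.2) and 49.8 in NNE (40.2 to 61.1). At day 15 it stood at 65.5 CPM in ENCCs (63.4 to 67.7), 51.7 in Mes (34.6 to 74.3), 35.6 in CP1 (28.4 to 44.0) and 21.8 in NEP (14.1 to 32.2). In the 43 CP2 cells it gave 1 UMI, 0.0380 of the day 15 ENCC level with an interval from 0.000961 to 0.212. At day 10 only ENCCs and CP, of 3 neighbour pairs, were apart, and at day 15 CP1 and NEP, and NEP and CP2, of 4. CP2 is also the class with 0% of cells in S or G2M, against 65.3% of day 15 ENCCs, and the part of cell cycling in this level was not tested.

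L1TD1 went from 0 in 1 type to its highest level in another. In the 47 Mes cells it stood at 121 CPM (94.2 to 154), 3.72 times the day 15 ENCC level (2.88 to 4.74). Those ENCCs followed at 32.6 CPM (31.1 to 34.1), then CP1 at 6.28 (3.51 to 10.4) and NEP at 4.36 (1.42 to 10.2). At day 10 NNE at 49.8 CPM (40.2 to 61.1) and CP at 45.1 (37.1 to 54.2) did not differ beyond counting error, and ENCCs at 26.6 (24.9 to 28.3) and NEP at 4.63 (3.57 to 5.90) were each below the type before. In CP2 L1TD1 gave 0 UMIs, which allows up to 7.46 CPM. Thinned to 3000 UMIs, 31.9% of Mes cells (19.1% to 47.1%) had an L1TD1 UMI, against 9.08% of day 15 ENCCs (8.29% to 9.92%). Median depth was 12291 UMIs in Mes and 11082 in ENCCs of day 15. Mes is small, and TWIST1 and MSX1 were its only markers of 5 among its leading genes.

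DPPA4 and L1TD1 did not go together across the types. There were 3.99 DPPA4 UMIs per L1TD1 UMI in day 10 ENCCs (3.72 to 4.29), 13.0 in NEP (10.1 to 17.0), 1.54 in CP (1.21 to 1.97) and 1.00 in NNE (0.741 to 1.35), and 0.426 in Mes (0.266 to 0.668). Among thinned day 10 ENCCs, an L1TD1 UMI was seen in 8.18% of cells with a DPPA4 UMI (6.77% to 9.78%) and 7.80% of those without (6.95% to 8.73%). In the crestospheres these shares were 9.84% (7.96% to 12.0%) and 8.91% (8.05% to 9.83%).

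SALL4, a zinc finger transcription factor, was highest at day 10 in NEP, at 51.8 CPM (48.1 to 55.7). It stood at 31.5 in CP (25.0 to 39.3), 26.6 in ENCCs (24.9 to 28.3) and 26.0 in NNE (19.2 to 34.5), and at day 15 it was between 9.95 CPM in CP2 and 21.4 in Mes, with 13.4 in ENCCs (12.4 to 14.4). Of the neighbour pairs in the SALL4 order within each stage, only NEP and CP of day 10 were apart. DNMT3B was low, from 1.74 CPM in day 15 NEP (2 UMIs) to 9.95 in CP2 (4 UMIs), with 9.09 in day 10 ENCCs (8.15 to 10.1) and 6.27 in day 15 ENCCs (5.63 to 6.96). No neighbours in the order of DNMT3B at either stage were apart by more than counting error.

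The first comparison asked how far the stem cell genes were lower in crestospheres than in the monolayer. Between the sums of all cells, SALL4 went from 34.9 CPM (2458 UMIs) at day 10 to 14.5 CPM (1228 UMIs) at day 15, a log2 ratio of -1.22, and was the 1 member past 2-fold, lower. On the rule used, an absolute log2 ratio of CPM + 1 of at least 1 among genes at 1 CPM or more in either sum, 10.1% of 13644 genes were 2-fold lower and 18.6% were past 2-fold in either direction, so the 1 of 6 members called is close to the background. Higher by 2-fold were 0 of the 6, beside 8.47% of all genes. LIN28A had a log2 ratio of -0.49, LIN28B -0.64, DPPA4 -0.52 and DNMT3B -0.32, all lower at day 15 by less than 2-fold. These sums include the cells marked as low quality. Without those cells LIN28B was at -0.86, outside its counting interval of -0.71 to -0.58. L1TD1 alone was higher, at 22.2 CPM on day 10 and 29.3 CPM on day 15 (log2 ratio 0.39, interval 0.30 to 0.47). POU5F1 was at 0.230 of its day 10 level (0.121 to 0.414) and NANOG at 0.337 (0.201 to 0.551), both from levels under 1 CPM and so outside the rule, as was TDGF1. The median log2 ratio of the 6 members was -0.50, beside -0.17 for all genes past the filter.

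In ENCCs alone each member kept the direction it had among all cells, with a smaller step for SALL4 and LIN28A and a larger one for LIN28B and DPPA4. DPPA4 stood at 106 CPM and 65.5 CPM (log2 ratio -0.69), LIN28B at 45.3 and 25.9 (-0.79), LIN28A at 214 and 164 (-0.38), and DNMT3B at 9.09 and 6.27 (-0.47). SALL4 stood at 26.6 and 13.4 CPM, a ratio of 0.503 (0.456 to 0.553) and a log2 ratio of -0.94, just short of 2-fold. L1TD1 stood at 26.6 CPM on day 10 and 32.6 on day 15, a ratio of 1.23 (1.13 to 1.33). Past 2-fold were 0 of 6 members, where 14.4% of 12707 genes were past 2-fold in either direction, 6.7% lower and 7.75% higher, and the median of the members was -0.58 beside -0.14 for all genes. SALL4 passed 2-fold when each cell was thinned to 3000 UMIs (-1.02). After that thinning a DPPA4 UMI was seen in 27.3% of day 10 ENCCs (26.1% to 28.6%) and 17.9% of day 15 ENCCs (16.9% to 19.0%), and a SALL4 UMI in 7.56% (6.84% to 8.34%) and 3.71% (3.20% to 4.27%).

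**Figure D2:**
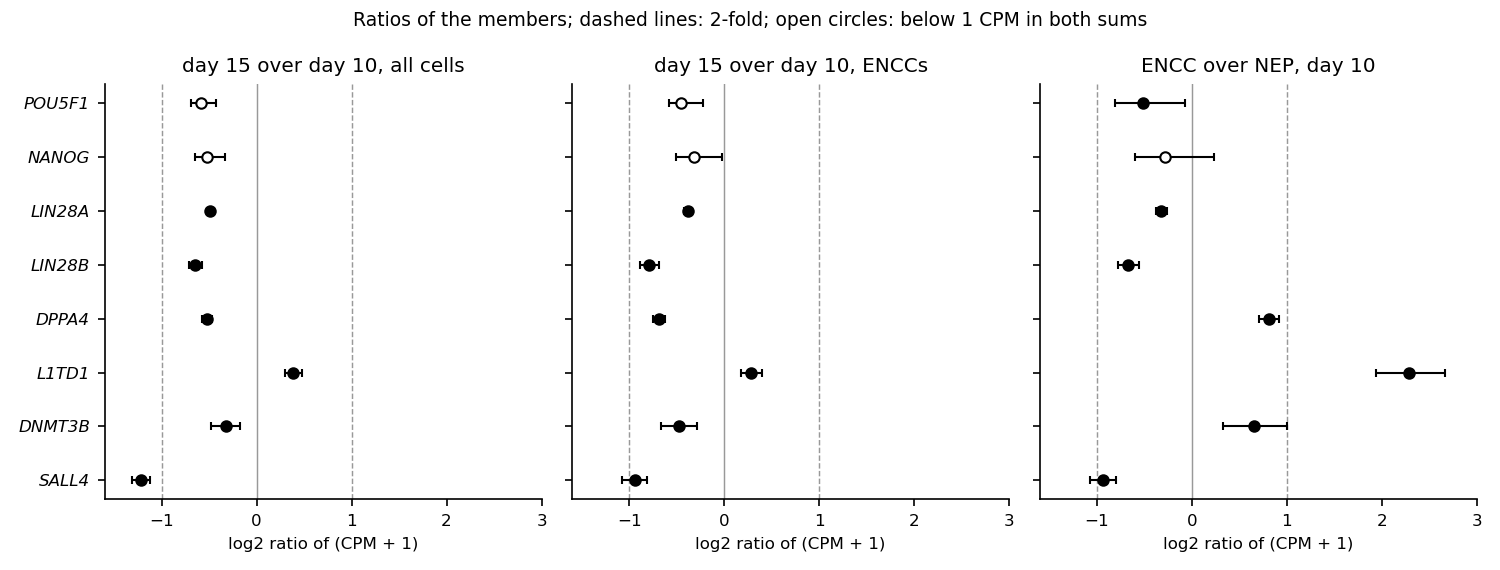
Log2 ratios of CPM + 1 (horizontal axis) of 8 members in 3 comparisons, with bars for the 95% counting interval and dashed lines at 2-fold. Open circles mark members below 1 CPM in both sums, and TDGF1, at 0 UMIs, is not drawn. SALL4 at -1.22 is past the line among all cells, no member is past it among ENCCs, and L1TD1 at 2.29 is past it between ENCCs and NEP.

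ENCCs and NEP cells of day 10 were counted in 1 library, with median depths of 7004 and 7227 UMIs, although the share of each type that came from each pooled repeat is not known. The members split between these types. L1TD1 stood at 26.6 CPM in ENCCs (982 UMIs) and 4.63 CPM in NEP (65 UMIs), 5.74 times higher in ENCCs (4.46 to 7.50, log2 ratio 2.29), and it was the 1 of 7 members past 2-fold, beside 2.72% of 13578 genes that were 2-fold higher in ENCCs, 15.8% that were lower and 18.6% in either direction. DPPA4 was 1.77 times higher in ENCCs (1.64 to 1.91) and DNMT3B 1.68 times (1.31 to 2.18). SALL4 was lower in ENCCs, at 0.513 of the NEP level (0.466 to 0.566), as were LIN28B at 0.623 (0.576 to 0.674) and LIN28A at 0.80 (0.769 to 0.832). POU5F1 stood at 0.464 of the NEP level (0.238 to 0.919) and NANOG at 0.651 (0.324 to 1.36), both on 24 UMIs or fewer per type. The members' median was -0.32 beside -0.22 for all genes. Of the marker genes, SOX10 stood at 119.7 CPM in ENCCs and 12.6 in NEP, and WNT2B at 49.6 and 827. Most WNT2B UMIs of ENCCs (1460 of 1833) lay in the 256 cells outside the numbered subclusters, and WNT2B stood at 10.1 CPM in ENCC 1. Transcripts of each type were thus also counted under the label of the other, and their part in the L1TD1 count of NEP was not tested. With TMM scaling DPPA4 was past 2-fold too (1.12), and SALL4 was past 2-fold lower when ENCCs outside the numbered subclusters were left out (-1.01) and when each cell had equal weight (-1.02).

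Those ENCCs outside the numbered subclusters, 256 cells of day 10 whose subtype is given as non-crest, were set beside NEP and ENCC 1, the largest subcluster. LIN28B stood at 71.1 CPM (60.5 to 83.0), DPPA4 at 60.9 (51.1 to 72.0) and SALL4 at 48.5 (39.8 to 58.5), and the ratio of each to its NEP level had an interval that spanned 1, while each was apart from ENCC 1. DNMT3B was apart from neither (ratio 1.15, 0.600 to 2.05, to NEP and 0.697, 0.374 to 1.20, to ENCC 1). L1TD1 at 9.34 CPM (5.78 to 14.3) was 2.02 times the NEP level (1.17 to 3.34) and 0.373 of the ENCC 1 level (0.229 to 0.575). WNT2B stood at 649 CPM and SOX10 at 26.2 CPM in these cells.

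Among the numbered subclusters of day 10 the members were close. DPPA4 ranged from 94.8 CPM in ENCC 4 to 114 in ENCC 2, LIN28A from 182 in ENCC 3 to 214 in ENCC 1, and LIN28B from 39.2 in ENCC 3 to 49.1 in ENCC 2. L1TD1 stood at 34.5 CPM in ENCC 2, 1.38 times ENCC 1 (1.19 to 1.59), and SALL4 at 16.0 in ENCC 3, 0.624 of ENCC 1 (0.432 to 0.873). At day 15 the 138 cells of ENCC 4′ stood apart. Of the day 15 subclusters they had the most LIN28A, 229.5 CPM (206 to 255), and the least DPPA4, 33.6 (25.0 to 44.2), L1TD1, 11.2 (6.53 to 18.0), SALL4, 5.28 (2.28 to 10.4) and LIN28B, 17.8 (11.7 to 25.9). Their LIN28B was not apart from ENCC 3′ (ratio 0.829, 0.531 to 1.25) or ENCC 1′ (0.700, 0.457 to 1.03). DNMT3B in ENCC 4′ rested on 4 UMIs, 2.64 CPM (0.719 to 6.76). It was not apart from ENCC 1′ (ratio 0.477, 0.128 to 1.26) or from ENCC 2′, which had 2.54 times the level (0.976 to 9.43). It was apart from ENCC 3′ (0.360, 0.0951 to 0.972). ENCC 2′, the largest with 2377 cells, had 2.10 times the DPPA4 (1.59 to 2.83), 3.51 times the L1TD1 (2.18 to 6.05) and 2.82 times the SALL4 of ENCC 4′ (1.42 to 6.59), but 0.677 of its LIN28A (0.606 to 0.757). Median depth was 10290 UMIs in ENCC 4′ and 11101 in ENCC 2′, and 13.8% of ENCC 4′ cells were called in S or G2M, against 71.4% of ENCC 2′. Whether cycling has a part in these levels was not tested. ENCC 3′ had the most DPPA4 of the day 15 subclusters, 80.5 CPM (74.5 to 86.9).

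**Figure D3:**
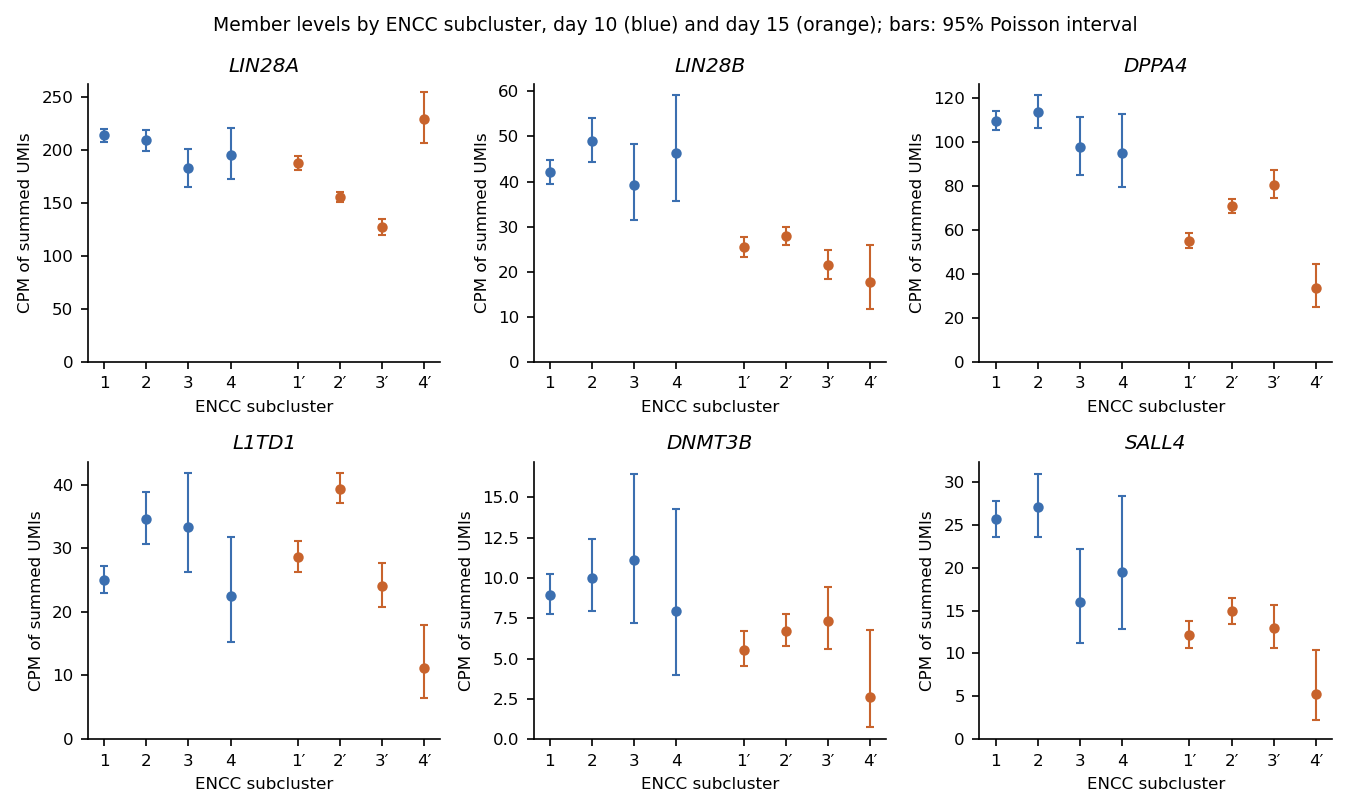
CPM of 6 members (vertical axis, linear from 0) in the numbered ENCC subclusters of day 10 (blue) and day 15 (orange), with exact 95% Poisson intervals as bars. ENCC 4′ is highest of the day 15 subclusters for LIN28A (229.5 CPM) and lowest for DPPA4, L1TD1 and SALL4, while its LIN28B and DNMT3B intervals overlap those of other day 15 subclusters.

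Cell cycle phases were called by the authors from other genes. In day 10 ENCCs (1918 cells in G1, 1550 in S, 1453 in G2M) DPPA4 was highest in G1, at 125 CPM (119 to 131), against 98.3 in S (92.7 to 104) and 94.1 in G2M (88.7 to 99.7). In day 15 ENCCs (1714, 2092 and 1128 cells) it differed by less than counting error between G1 at 62.8 CPM (59.2 to 66.6) and G2M at 65.7 (61.6 to 70.1). DNMT3B was higher in G2M than in G1 at both stages, 1.72 times at day 10 (1.33 to 2.23) and 2.14 times at day 15 (1.57 to 2.94), as was LIN28B, 1.17 times (1.05 to 1.32) and 1.47 times (1.28 to 1.69). SALL4 in G2M was 0.951 of G1 at day 10 (0.817 to 1.11) and 1.58 times G1 at day 15 (1.30 to 1.92). In G1 alone, LIN28A went from 228 CPM at day 10 to 175 at day 15, DPPA4 from 125 to 62.8, SALL4 from 28.6 to 10.5, and L1TD1 from 28.9 to 31.1. The stage differences among ENCCs thus had the same direction within G1 for each of these 4 members, with overlapping intervals for L1TD1.

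**Figure D4:**
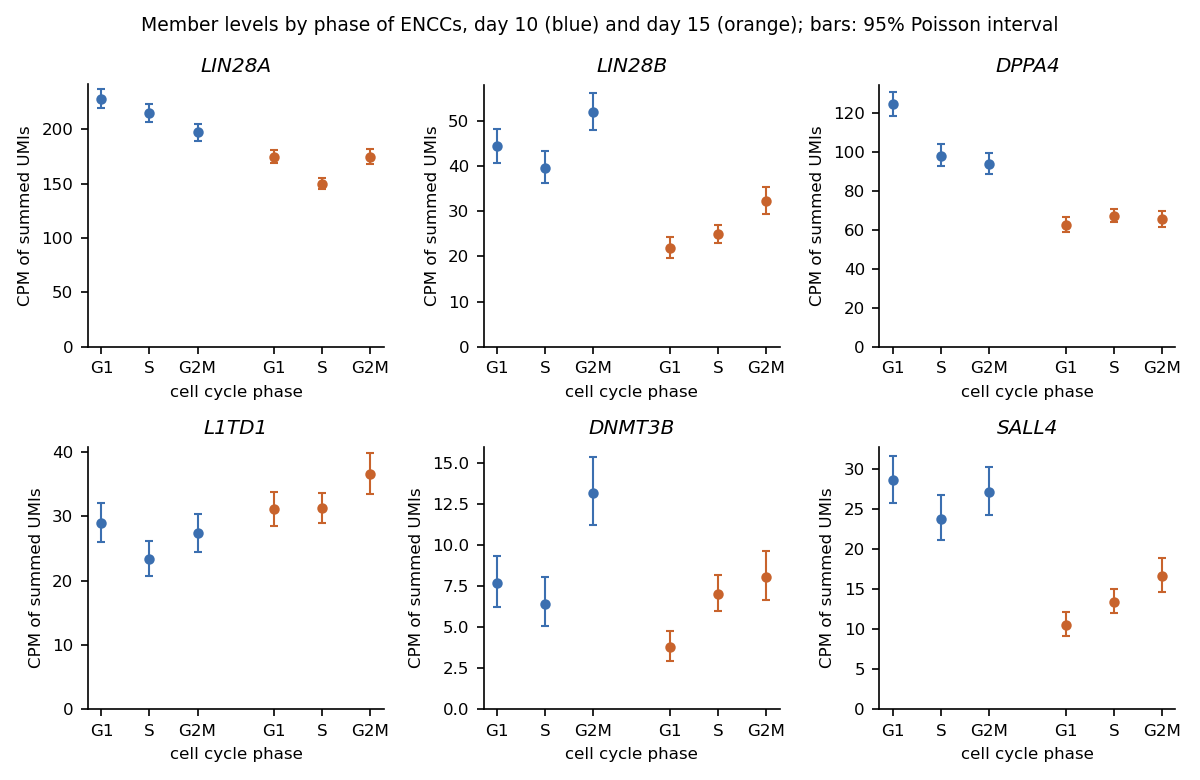
CPM of 6 members (vertical axis, linear from 0) in ENCCs by cell cycle phase at day 10 (blue) and day 15 (orange), with exact 95% Poisson intervals as bars. DPPA4 is highest in G1 of day 10 at 125 CPM, and DNMT3B and LIN28B are higher in G2M than in G1 at both stages.

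Cells holding several stem cell genes at once were counted over 5 core members, POU5F1, NANOG, TDGF1, DPPA4 and L1TD1. At day 10, 4699 of 9627 cells had a UMI of none of them, 4176 of 1, 751 of 2 and 1 of 3. At day 15, 2301 of 6320 had none, 2972 had 1, 1035 had 2 and 12 had 3. Since TDGF1 gave no UMI and no cell had both POU5F1 and NANOG, 3 was the most a cell could show, and the member beyond DPPA4 and L1TD1 was always a single UMI of POU5F1 or NANOG. Thus 0.0104% of day 10 cells (0.000263% to 0.0579%) and 0.190% of day 15 cells (0.0981% to 0.331%) had 3 or more. After thinning to 3000 UMIs there were 0 such cells at either stage. The 12 cells of day 15 had a median of 15361.5 UMIs, above the library's, and SOX10 stood in them at 85.3 CPM (51.4 to 133) with 0 UMIs of ZFP42. LIN28A, DPPA4 and L1TD1 were seen together in 7.97% of day 10 ENCCs (7.22% to 8.76%) and 12.9% of day 15 ENCCs (11.9% to 13.8%) at the deposited depth, which was higher at day 15.

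**Figure D5:**
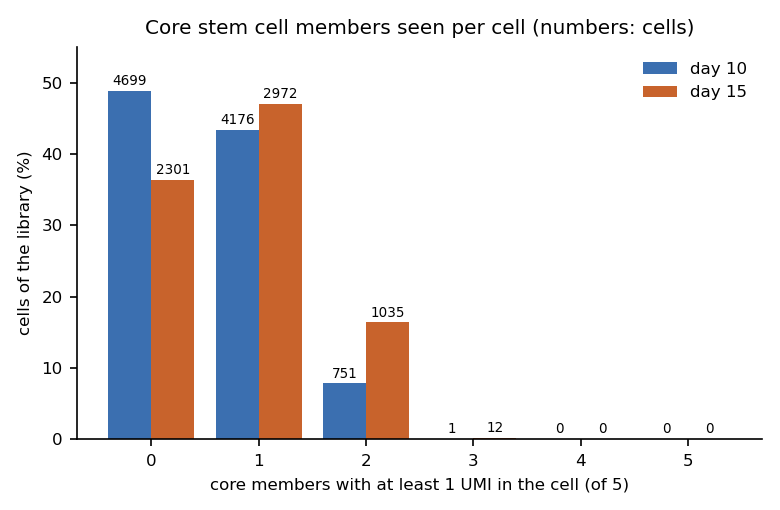
Percent of the cells of each library (vertical axis, from 0) by the number of core members with at least 1 UMI (horizontal axis), at day 10 (blue) and day 15 (orange), with the number of cells above each bar. Most cells hold none or 1 core member, and 12 cells of day 15 and 1 of day 10 hold 3.

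Other genes of the stem cell state were taken from a list of 30 names, of which 29 were found. Between all cells, 12 passed the filter, 6 of them 2-fold lower at day 15 and 0 higher, beside 10.1% and 8.47% of all genes, with a median log2 ratio of -0.89 beside -0.17 for all genes. PRDM14, DPPA5 and FGF4, known from pluripotent cells, gave 0 UMIs in both libraries. ZFP42 (REX1) stood at 7.80 CPM (550 UMIs) at day 10 and 0.388 (33 UMIs) at day 15. It was highest in NNE at 36.8 CPM (28.6 to 46.7), with 13.5 in NEP (11.7 to 15.6) and 3.06 in ENCCs (2.52 to 3.68), and gave 0 UMIs in the 4934 ENCCs of day 15. OTX2, a factor of stem cells and of the forebrain, stood at 29.6 CPM and 4.12 CPM, with 68.0 in day 10 NEP and 82.8 in day 15 NEP. SOX2, a stem cell factor that neural progenitors keep, stood at 18.4 and 19.2. TRIM71, a let-7 target itself, stood at 22.2 and 28.5, and POLR3G, a subunit of RNA polymerase III, at 8.54 and 14.1. TERF1, a telomere protein, stood at 64.4 and 50.9 CPM, and JARID2, a Polycomb partner, at 44.5 and 34.2. In ENCCs 10 of the list passed the filter, 3 were 2-fold lower and 0 higher, beside 6.7% and 7.75% of all genes.

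TDGF1 serves Nodal signals, and of 16 genes of that pathway the ligands and targets were near 0. NODAL gave 2 and 1 UMIs, GDF3 and GDF1 0 in both libraries, and LEFTY2, a target and inhibitor of Nodal, 24 at day 10 and 0 at day 15. The receptors and SMADs were counted at both stages. ACVR1B, a type I receptor, stood at 9.05 CPM at day 10 and 19.4 at day 15 (log2 ratio 1.02), ACVR2A at 8.50 and 14.2, ACVR2B at 19.7 and 23.6, and TGFBR1 at 14.1 and 14.9. SMAD2 stood at 31.4 and 30.6 CPM, SMAD4 at 13.9 and 13.1 and SMAD3 at 6.95 and 4.84. Past the filter were 7 genes, with 1 higher, 0 lower (8.47% and 10.1% of all genes) and a median log2 ratio of 0.08, beside -0.17 for all genes.

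The LIN28 and let-7 list held 21 genes, among them known let-7 targets and enzymes of let-7 processing, and all 21 passed the filter. Between all cells 1 was 2-fold higher (MYC, 1.83 and 8.86 CPM) and 1 lower, shares of the list below the 8.47% and 10.1% of all genes, with a median log2 ratio of 0.03 beside -0.17. HMGA1, a chromatin protein, stood at 1537 and 826 CPM (log2 ratio -0.89), HMGA2 at 122 and 91.9, and the RNA-binding proteins IGF2BP1, IGF2BP2 and IGF2BP3 at 87.6 and 92.6, 137 and 99.7, and 80.3 and 61.4. CCND1, a cyclin of the G1 phase, stood at 48.9 and 93.6 CPM, CCND2 at 46.3 and 52.7, and MYCN at 14.7 and 25.2. NRAS stood at 36.1 and 29.8, ARID3A at 41.1 and 44.5, ARID3B at 36.1 and 23.8, CDC25A at 8.90 and 12.8, and IGF1R at 17.1 and 17.6 CPM. Of the processing enzymes, DICER1 stood at 56.3 and 52.2 CPM, the uridylyltransferases ZCCHC11 and ZCCHC6 at 56.1 and 44.2 and at 10.4 and 11.0, and the exonuclease DIS3L2 at 11.1 and 10.5. Of 20 genes of this list whose 3′ UTR was scanned, 12 held the let-7 seed match, beside 8.60% of all coding genes with a 3′ UTR. Since the list was made in part of known let-7 targets, its share of matches was not read as a result. Over the list 11 genes were higher at day 15 and 10 lower.

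DNMT3B works beside other enzymes of DNA methylation, of which 12 were listed and 10 passed the filter, 1 higher and 0 lower, beside 8.47% and 10.1% of all genes, with a median log2 ratio of 0.16 beside -0.17. DNMT1, the maintenance enzyme, stood at 109 and 128 CPM, its partner UHRF1 at 25.1 and 34.2, HELLS at 101 and 133, and DNMT3A, the paralog of DNMT3B, at 39.0 and 30.9. TET1, a demethylating oxygenase, stood at 90.6 and 90.8, TDG at 47.3 and 53.7, and TET3 at 2.88 and 2.69. DNMT3L, a cofactor of the germ line, gave 0 UMIs. The members' paralogs numbered 13, of which 6 passed the filter, 3 lower and 1 higher, beside 10.1% and 8.47% of all genes, with a median of -0.69 beside -0.17. SALL2 stood at 22.8 and 6.07 CPM, SALL3 at 1.52 and 0.0824, and SALL1 at 4.00 and 1.42, and POU3F1, a neural relative of POU5F1, at 0.596 and 2.58, while POU3F2 stood at 2.61 and 2.22. All 3 SALL paralogs were, like SALL4, 2-fold lower at day 15 in the sums over all cells (log2 ratios of SALL1 -1.04, SALL2 -1.75 and SALL3 -1.22). With TMM scaling all stayed lower, but SALL1 did not pass 2-fold (-0.91). In ENCCs alone 4 of the 13 paralogs passed the filter, 1 of them 2-fold lower and 1 higher, beside 6.7% and 7.75% of all genes. SALL4 fell short of 2-fold there (log2 ratio -0.94). DPPA2, the partner of DPPA4, gave 47 and 34 UMIs.

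Markers of mesendoderm and of germ cells were low. Of 8 mesendoderm genes, TBXT (listed as T) and GSC gave 0 UMIs in both libraries, and 1 passed the filter, GATA6 at 1.70 and 0.0588 CPM. Of 8 germ cell genes, DDX4 and DAZL gave 0 UMIs in both libraries. TFAP2C, which surface ectoderm also uses, stood at 12.1 and 1.34 CPM, KIT at 2.92 and 4.40 and PRDM1 at 1.08 and 0.447. The median log2 ratio of the 3 germ cell genes past the filter was -0.52, with 1 lower and 0 higher past 2-fold, beside -0.17, 10.1% and 8.47% for all genes.

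The genes whose levels were most like each member's were sought over 15 classes, the 8 numbered ENCC subclusters and 7 other types, among 10389 genes, by Pearson's r of log2(CPM + 1). The classes share 2 libraries and differ in size and cycling, so the values are a description. For DPPA4 they were FAM64A (r = 0.98), ASPM (0.97) and TPX2 (0.97). For L1TD1 they were TOE1 (0.91), CDK2 (0.90) and DNMT1 (0.90). LIN28A was nearest to CREBZF (0.93), AMOTL2 (0.89) and EPB41L4A-AS1 (0.87), LIN28B to GOLGA7 (0.96), CDO1 (0.93) and NDUFS8 (0.92), DNMT3B to CFAP20 (0.91), MEX3A (0.87) and EIF4EBP2 (0.86), and SALL4 to DCAF10 (0.92), SIPA1L1 (0.92) and ZC3H14 (0.92). No member was among the 3 nearest genes of another.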

How the data were processed

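Single-cell 3′ RNA libraries (10x Genomics kit v3.1) of 1 day 10 and 1 day 15 pool of H9-derived cells were used. The authors deposited raw UMI counts per gene and cell, without normalization, and the deposited metadata give a percent of mitochondrial and of ribosomal UMIs per cell, a phase, a cell type and a subtype. The submitters' processing notes name Cell Ranger, Seurat 4.0.4 and GRCh38, whereas the study's methods name kallisto and bustools. The annotation is not given in the sources used here.

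Counts were summed per class and scaled to CPM. Intervals are exact Poisson for levels, Clopper-Pearson for shares and exact conditional for ratios of counts, at 95%. A count of 0 was taken to allow 3 UMIs or cells. Log2 ratios used CPM + 1, which understates low genes. A gene was called at 2-fold among genes at 1 CPM or more in at least 1 sum. With 1 library per stage no test was made. Shares were compared after thinning cells to 3000 UMIs. Summing, calling, thinning and intervals were tested on simulated data. Doublets were not removed beyond the authors' limits. Members, gene lists and rules were chosen with earlier results of these data known. Named genes of the lists were those at 10 CPM or more in a library or with the 2 highest or 2 lowest log2 ratios, plus some at or near 0 named after their values were seen. Some genes that these lists and counts include are not reported here by name. Alternatives were TMM scaling (edgeR 4.0.16), other pseudocounts, filters, cell sets, weights and depths. Python 3.11.15, numpy 2.4.6, scipy 1.17.1 and R 4.3.3 were used.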

Additional observations from a re-analysis of the deposited data

How the results depend on the processing

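No paired analysis was possible because each stage has 1 library, so the groups share only the number 1. With no replicates, depth limits what can be seen: POU5F1, NANOG and TDGF1 rest on 59 UMIs or fewer per library, and CP2, Mes and ENCC 4′ on 138 cells or fewer. Scaling by TMM shifted the median of all genes (log2 ratio) from -0.17 to 0.01 between all cells, from -0.14 to 0.03 between ENCCs and from -0.22 to 0.07 between ENCCs and NEP, and the share of higher genes among those past 2-fold from 45.6% to 57.2%, 53.6% to 65.8% and 14.7% to 30.3%. The share of all genes past 2-fold was 18.6%, 14.4% and 18.6% in these comparisons, 7.67%, 5.93% and 7.77% with 5 CPM added in place of 1, and 10.5%, 8.27% and 11.6% without the filter. Under TMM scaling the median of the members was -0.31 between all cells and -0.41 between ENCCs. Members past 2-fold between ENCCs were 1 after thinning (SALL4), and between ENCCs and NEP 2 under TMM scaling (DPPA4 with L1TD1), with each cell weighted equally and with numbered ENCCs only (SALL4 with L1TD1 in both). Cells with 3 or more core members were 0 at day 10 in kept cells and after thinning, and 0 at day 15 after thinning. A minimum of 2 UMIs per gene could only give 0, since no cell had more than 1 UMI of POU5F1, NANOG or TDGF1. No alternative changed the sign of a member's log2 ratio, although LIN28A between ENCCs and NEP was -0.01 under TMM scaling. Of 136 alternative values of single members, 30 moved by more than their counting interval, and of 243 alternative shares of cells, 124 did. The causes of these moves were not tested.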

Other observations

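The cells that the authors marked as low quality entered the sums over all cells and no class. At day 10 the 2332 such cells had a median of 3679 UMIs, LIN28A stood at 249.7 CPM (242 to 258), DPPA4 at 72.2 (68.0 to 76.6), SALL4 at 41.1 (37.9 to 44.4) and L1TD1 at 20.5 (18.2 to 22.9), and WNT2B at 529 CPM. At day 15 the 984 such cells had a median of 21367 UMIs, LIN28B stood at 50.8 CPM (48.0 to 53.7), against 25.9 in ENCCs, and LIN28A at 172 (167 to 177). One of them held 36 UMIs of LIN28A, the most in any cell. POU5F1 gave 9 and 2 UMIs and NANOG 19 (1.25 CPM, 0.755 to 1.96) and 5 in the marked cells, and TDGF1 0.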
